A study of Mus musculus with 24 samples.

Results

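The 8 genes described here encode the enzymes that make fatty acids from citrate, together with their main transcription factor: Acly, Me1, Acaca, Fasn, Elovl6, Scd1, Scd2 and Srebf1. They were taken by gene symbol from a list chosen with earlier results of these data known. Of the 8 genes, 7 were measured among 15267 genes. Acaca, which encodes acetyl-CoA carboxylase 1, was not analysed here. The mice were male C57BL/6 animals of 3 to 3.5 months, either wild-type or Amacr-/-, with no treatment named in the labels. Amacr encodes alpha-methylacyl-CoA racemase, a peroxisomal and mitochondrial enzyme needed to shorten branched fatty acids and the side chain of bile acid precursors. Each intestine was cut into 4 segments of equal size, numbered 1 to 4, and RNA from the layer scraped off each segment was hybridised to 1 array, with 3 replicates in each of 8 groups, 24 arrays in all. Amacr itself was lower in Amacr-/- arrays in every segment, the log2 difference being -3.08 in segment 1, -2.84 in segment 2, -1.95 in segment 3 and -2.08 in segment 4 (limma adjusted p at most 1.85e-05).

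All values are the authors' log2 values after robust multi-array averaging (RMA), a method that corrects background, equalises the distribution of values between arrays and summarises the probes of a gene into 1 value. A difference of 1 is therefore a doubling of signal, and the levels of different genes are not set against each other because their probes differ. The labels do not say which end segment 1 is. Fabp6, which encodes the bile acid binding protein of the ileum, averaged between 4.22 and 4.63 in the 4 groups of segments 1 and 2 and between 12.21 and 14.67 in those of segments 3 and 4. In the labels the scraped material is named endothelial. Epcam, an epithelial adhesion protein, lay between 13.32 and 13.98 on all arrays, whereas Cdh5, which marks vessel endothelium, lay between 4.28 and 4.76. In scraped tissue, fewer cells of a type and less RNA per cell cannot be told apart.

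In the cytosol, ATP citrate lyase (Acly) splits citrate into acetyl-CoA, and malic enzyme 1 (Me1) makes NADPH, the reductant of the pathway. Fatty acid synthase (Fasn) builds palmitate from acetyl-CoA and malonyl-CoA, Elovl6 lengthens palmitate to stearate, and the stearoyl-CoA desaturases Scd1 and Scd2 introduce the double bond that makes monounsaturated fatty acids. Srebf1 encodes SREBP-1, which activates these genes in liver and fat cells in response to insulin and liver X receptors. In the small intestine the products go into membranes and, with absorbed fat, into triglyceride for chylomicrons. Fat cells make fatty acids by the same enzymes and contain much Scd1 and Fasn RNA, and mesenteric fat lies against the gut wall.

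The genes lie on 4 chromosomes of the mouse (RefSeq, GRCm38.p6): Acly (11:100476352-100528000), Fasn (11:120805958-120825166) and Srebf1 (11:60199084-60224186) on chromosome 11, Elovl6 (3:129532386-129638495) on chromosome 3 and Me1 (9:86581363-86695914) on chromosome 9. Scd2 (19:44293676-44306864) and Scd1 (19:44394450-44407709) lie in a cluster on chromosome 19 that also holds Scd3 and, between Scd2 and Scd1, Scd4. The 250 bases before an annotated RefSeq start are shown for 4 of these genes. Acly and Fasn had higher means in segment 4 than in segment 1, and Elovl6 and Me1 had lower means there. Capitals mark CCAAT boxes (CCAAT) and GC boxes (GGGCGG), found on either strand.
Acly, 11:100528001-100528250, minus strand: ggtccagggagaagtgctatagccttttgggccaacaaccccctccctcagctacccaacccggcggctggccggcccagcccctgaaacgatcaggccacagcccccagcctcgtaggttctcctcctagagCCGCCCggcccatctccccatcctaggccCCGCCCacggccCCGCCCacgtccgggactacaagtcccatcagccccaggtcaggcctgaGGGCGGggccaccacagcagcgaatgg
Fasn, 11:120824548-120824797, minus strand: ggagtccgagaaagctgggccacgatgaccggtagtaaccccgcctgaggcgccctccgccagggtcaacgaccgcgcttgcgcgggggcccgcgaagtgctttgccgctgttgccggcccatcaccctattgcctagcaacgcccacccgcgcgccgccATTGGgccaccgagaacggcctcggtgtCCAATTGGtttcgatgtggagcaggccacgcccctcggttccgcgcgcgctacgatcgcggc
Elovl6, 3:129532136-129532385, plus strand: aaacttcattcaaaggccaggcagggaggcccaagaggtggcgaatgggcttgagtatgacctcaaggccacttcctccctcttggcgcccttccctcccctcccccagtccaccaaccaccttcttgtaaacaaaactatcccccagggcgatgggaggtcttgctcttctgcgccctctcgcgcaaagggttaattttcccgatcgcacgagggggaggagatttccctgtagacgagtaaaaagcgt
Me1, 9:86695915-86696164, minus strand: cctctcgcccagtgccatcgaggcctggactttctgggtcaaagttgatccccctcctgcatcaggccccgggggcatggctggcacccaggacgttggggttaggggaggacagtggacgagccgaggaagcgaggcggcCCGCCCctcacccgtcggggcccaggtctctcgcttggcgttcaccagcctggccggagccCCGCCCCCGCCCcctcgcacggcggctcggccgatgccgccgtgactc
The Acly window held 4 GC boxes and no CCAAT box, and the Fasn window held 3 CCAAT boxes, 2 of which overlap each other, and no GC box. The Me1 window shown, the outer of 2 annotated starts, held 3 GC boxes, and the other (9:86687278-86687527) held 1 CCAAT box and no GC box. The Elovl6 window held neither motif. Of all 32851 windows of this length, 33.8% held a CCAAT box and 32.7% a GC box. The sterol regulatory element TCACNCCAC and the E-box CACGTG, searched on both strands, were in 1.05% and 6.02% of all windows and in none of the 9 windows available for 6 of the 8 genes (Scd1 and Scd2 had none). These are matches of letters within these windows and say nothing about binding. The windows of Fasn, Acaca and Srebf1 lay inside the annotated spans of these genes, so the bases before their outermost starts were not searched.

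The clearest pattern in the pathway was a difference between the ends of the intestine, and it ran in opposite directions for different enzymes. In wild-type mice, Scd2 was 8.26-fold and Acly 1.66-fold higher in segment 4 than in segment 1, whereas Me1 was 4.97-fold, Elovl6 2.35-fold and Srebf1 2.15-fold lower. In Amacr-/- mice the same 5 genes changed in the same directions and Fasn was 2.52-fold higher as well. With limma, 5 of the 7 genes passed an adjusted p of 0.05 for segment 4 against segment 1 in wild-type mice, where 23.6% of all genes did, and 6 of 7 in Amacr-/- mice, where 30.3% did. Tested for any difference among the 4 segments, the counts were again 5 of 7 in wild-type (22.7% of all genes) and 6 of 7 in Amacr-/- mice (28.3%). The median over the 7 genes of the log2 difference between segments 4 and 1 was 0.73 in wild-type and 1.06 in Amacr-/- mice, against 0.03 and -0.01 over all genes, a median that hides the opposite directions.

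**Figure D1:**
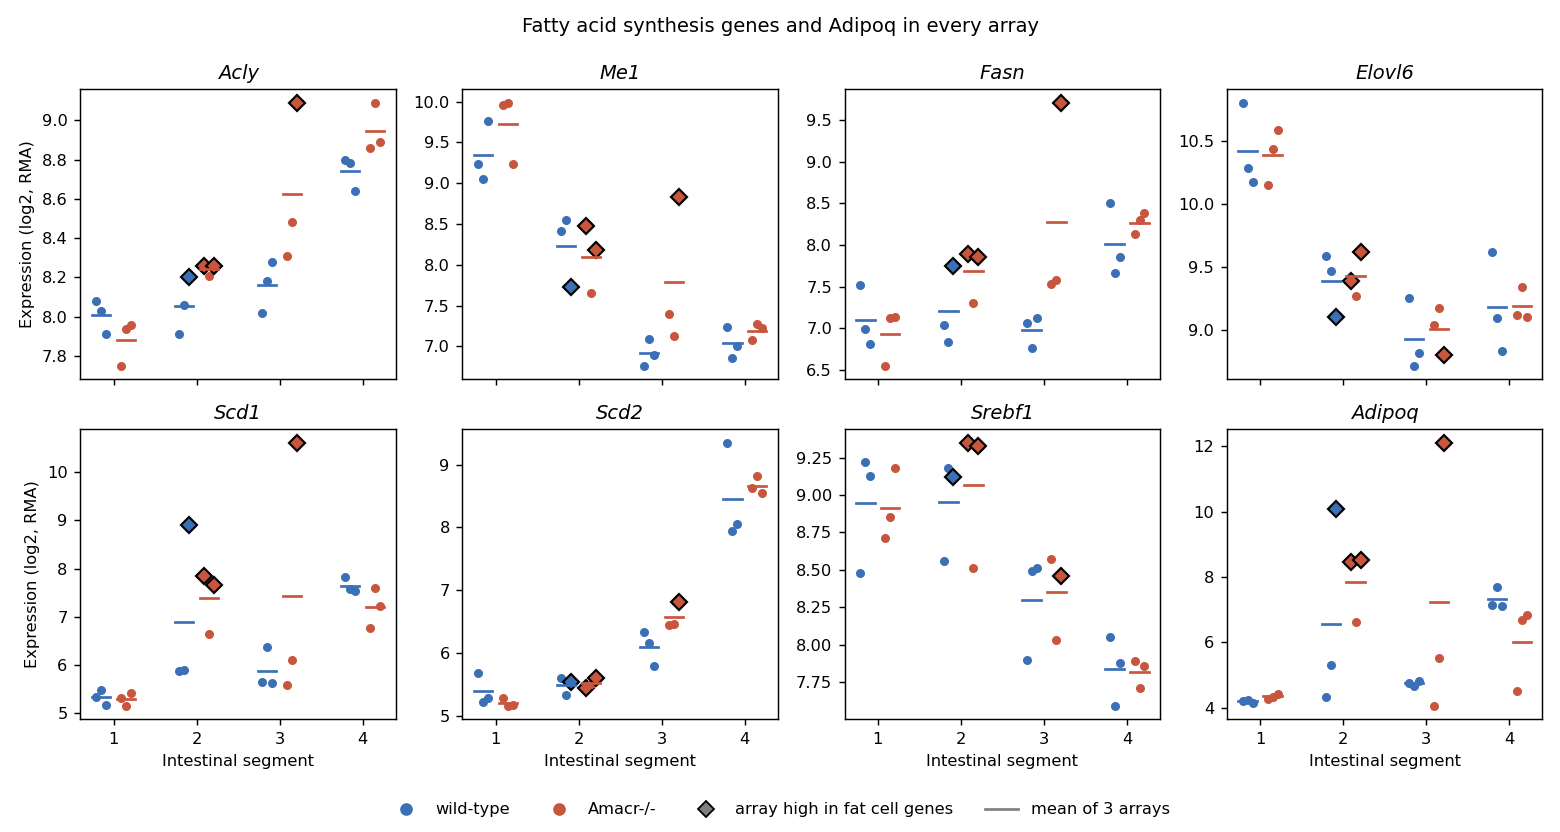
Log2 value (RMA) of each of the 7 genes, and of the fat cell gene Adipoq, on each of the 24 arrays, by segment. Blue points are wild-type and red points Amacr-/- arrays, and short bars mark the group means (n = 3 each). Black-edged diamonds are arrays high in fat cell genes. Scd2 climbs to between 7.94 and 9.35 in segment 4, Me1 and Elovl6 are highest in segment 1, and Scd1 and Fasn each have 1 Amacr-/- array of segment 3 far above the others (10.61 and 9.71).

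Acly, which supplies acetyl-CoA, was higher in segment 4 by a small and even step. In wild-type mice its log2 values were 8.08, 8.03 and 7.91 in segment 1 and 8.80, 8.78 and 8.64 in segment 4, a difference of 0.73 ± 0.14 (SE; limma adjusted p = 0.000564). The Amacr-/- arrays read 7.75, 7.94 and 7.96 in segment 1 and 8.86, 9.09 and 8.89 in segment 4, a difference of 1.06 ± 0.14 (limma adjusted p = 7.65e-06). No array of segment 1 reached any array of segment 4 in either genotype. The order of the group means was segment 4, 3, 2 and 1 in both genotypes. In wild-type mice only segment 4 was clear of its neighbour, segments 3, 2 and 1 overlapping in turn, and in Amacr-/- mice only segments 4 and 3 overlapped.

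Me1, the NADPH source, had the reverse pattern and the largest fall among the 7 genes. Its wild-type values were 9.24, 9.05 and 9.76 in segment 1, 8.41, 8.55 and 7.73 in segment 2, 6.76, 7.09 and 6.90 in segment 3 and 7.24, 6.86 and 7.01 in segment 4. The values of segment 1 lay above all those of segment 2 and these above all those of segments 3 and 4, which overlapped. Segment 4 minus segment 1 was -2.31 ± 0.33 (SE; limma adjusted p = 3.03e-05) in wild-type and -2.54 ± 0.33 (limma adjusted p = 7.92e-06) in Amacr-/- mice. Amacr-/- arrays read 9.96, 9.99 and 9.24 in segment 1 and 7.08, 7.28 and 7.22 in segment 4, with 1 high array in segment 3 (8.83, beside 7.40 and 7.13).

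Fasn, the synthase itself, was higher in segment 4 in Amacr-/- mice and did not pass the test in wild-type mice. The Amacr-/- values were 6.55, 7.12 and 7.14 in segment 1 and 8.13, 8.30 and 8.38 in segment 4, a difference of 1.33 ± 0.41 (SE; limma adjusted p = 0.017). Without replicate 1 of segment 1 this call was lost (adjusted p = 0.0724). In wild-type mice the values were 7.52, 6.99 and 6.81 against 8.51, 7.67 and 7.86, again without overlap, with a difference of 0.91 ± 0.41, a 95% interval of 0.05 to 1.76 and an adjusted p of 0.122. The same gene varied most among replicates in segment 3 of Amacr-/- mice, where it read 7.53, 7.58 and 9.71. Its test over all 4 segments in Amacr-/- mice (adjusted p = 0.0422) was also lost when Amacr-/- arrays were fitted alone (0.133) or with a trended, robust variance prior (0.0558).

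Elovl6, the elongase that makes stearate, was highest in segment 1 and nearly level in the other segments. Wild-type arrays read 10.80, 10.28 and 10.17 in segment 1, 9.59, 9.47 and 9.11 in segment 2, 9.26, 8.72 and 8.82 in segment 3 and 9.62, 9.10 and 8.84 in segment 4. All values of segment 1 stood above all others, and segments 2, 4 and 3, in that order of means, overlapped. Segment 4 was lower than segment 1 by -1.23 ± 0.20 (SE; limma adjusted p = 0.000109) in wild-type and -1.20 ± 0.20 (limma adjusted p = 0.000115) in Amacr-/- mice. In Amacr-/- mice the segment 1 values were 10.15, 10.43 and 10.58, and none of the other Amacr-/- arrays exceeded 9.62.

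Scd2 had the steepest difference of the set. Its values in segments 1 and 2 stayed between 5.16 and 5.69 on all 12 arrays of both genotypes. These lie below the array medians (6.06 to 6.16), and how far they stand above background was not measured. In segment 3 the Scd2 values were 6.33, 6.16 and 5.79 in wild-type and 6.45, 6.47 and 6.82 in Amacr-/- mice. In segment 4 they were 9.35, 7.94 and 8.05 in wild-type and 8.63, 8.82 and 8.55 in Amacr-/- mice. The order of means was segment 4, 3, 2 and 1 in both genotypes, with only segments 2 and 1 of wild-type mice overlapping. Segment 4 exceeded segment 1 by 3.05 ± 0.25 (SE; limma adjusted p = 2.65e-08) in wild-type and 3.46 ± 0.25 (limma adjusted p = 3.13e-09) in Amacr-/- mice.

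Scd1, the other desaturase of the set, was at its lowest in segment 1 but did not pass the same test. Its 6 values in segment 1 lay between 5.15 and 5.48, also below the array medians (6.06 to 6.16). Its 6 values in segment 4 were 7.82, 7.57 and 7.53 in wild-type and 6.76, 7.59 and 7.23 in Amacr-/- mice. The differences were 2.31 ± 0.89 (SE; 95% interval 0.45 to 4.17; limma adjusted p = 0.0687) and 1.90 ± 0.89 (95% interval 0.04 to 3.77; adjusted p = 0.12). The wide errors come from segments 2 and 3, which share the estimate of spread: wild-type segment 2 read 5.88, 5.90 and 8.91, Amacr-/- segment 2 read 7.85, 6.64 and 7.65, and Amacr-/- segment 3 read 5.59, 6.10 and 10.61. Scd1 had a wider range over the 24 arrays, 5.46, than 99.7% of all genes.

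Srebf1, the regulator, ran against several genes it is known to activate. Its wild-type values were 8.48, 9.22 and 9.13 in segment 1 and 8.05, 7.59 and 7.88 in segment 4, a difference of -1.10 ± 0.24 (SE; limma adjusted p = 0.00217). Amacr-/- mice gave 8.71, 8.85 and 9.18 against 7.89, 7.71 and 7.86, a difference of -1.09 ± 0.24 (limma adjusted p = 0.00177). Segments 1 and 2 overlapped in both genotypes, with means between 8.91 and 9.06, and no array of segment 4 reached any array of segment 1 of either genotype. The array's Srebf1 value does not separate the transcripts of its alternative starts.

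**Figure D2:**
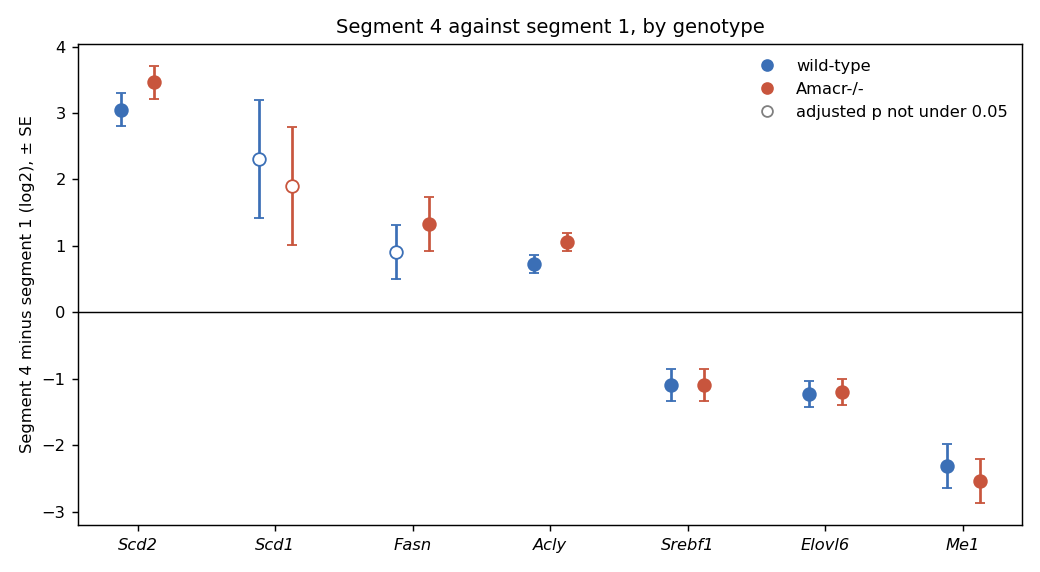
Log2 difference of segment 4 minus segment 1 for the 7 genes, with its standard error, in wild-type (blue) and Amacr-/- mice (red), 3 arrays in each group. Scd2 stands highest at 3.05 and 3.46, Me1 lowest at -2.31 and -2.54, and Scd1 has the widest errors (0.89).

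Genes of fat cells differed widely between arrays and moved with Scd1 and Fasn. Of 11 listed fat cell genes, 8 were measured, and their summed score (the mean of each gene's departure from its own average, log2) exceeded 1 on 4 arrays: replicate 3 of wild-type segment 2 (1.92), replicates 1 and 3 of Amacr-/- segment 2 (1.09 and 1.02) and replicate 3 of Amacr-/- segment 3 (3.22). Adipoq, the fat cell hormone adiponectin, read 10.08, 8.45, 8.51 and 12.11 on these 4 arrays, and Scd1 read 8.91, 7.85, 7.65 and 10.61. In segment 1 the score lay between -0.80 and -0.59 and Adipoq between 4.13 and 4.42. In segment 4 the score lay between 0.26 and 0.38 in wild-type and between -0.81 and 0.10 in Amacr-/- mice, with Adipoq at 7.13, 7.69 and 7.12 and at 4.50, 6.68 and 6.84. Lep, another fat cell hormone, stayed between 3.85 and 4.36 on all arrays but the one at 12.11 for Adipoq, where it read 5.01, and Cidec, a lipid droplet protein of the list, was between 9.39 and 10.28 in segment 1, where Adipoq was lowest.

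Scd1 and Fasn were therefore compared with these arrays left out and with the fat cell genes in the fit. None of the 4 arrays belongs to segment 1 or 4, so without them the Scd1 differences stayed at 2.31 and 1.90, their standard errors dropped to 0.21 and both passed (limma adjusted p = 8.18e-07 and 4.28e-06). Fasn then passed in wild-type mice too (0.91 ± 0.21, limma adjusted p = 0.00524). The smaller errors follow from the choice of arrays, since Scd1 and Fasn moved with the fat cell genes used for it. These passes are therefore no separate support for the differences. With the fat cell score as a covariate, Scd1 was 0.99 ± 0.20 higher in wild-type (limma adjusted p = 0.00147) and 1.41 ± 0.19 higher in Amacr-/- mice (adjusted p = 1.73e-05), while Fasn in wild-type mice was at 0.38 ± 0.23 (adjusted p = 0.267). With Adipoq alone as the covariate, a choice made after seeing the values, Scd1 was at 0.47 ± 0.26 in wild-type (limma adjusted p = 0.222) and 0.92 ± 0.24 in Amacr-/- mice (adjusted p = 0.00659). Fasn was at 0.19 ± 0.26 (limma adjusted p = 0.66) and 0.95 ± 0.24 (adjusted p = 0.00571). Scd2 kept differences of 2.96 and 3.41 in that fit. On replicate 1 of Amacr-/- segment 4, where Adipoq was 4.50, Scd1 read 6.76, above every array of segment 1, and Scd2 read 8.63.

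**Figure D3:**
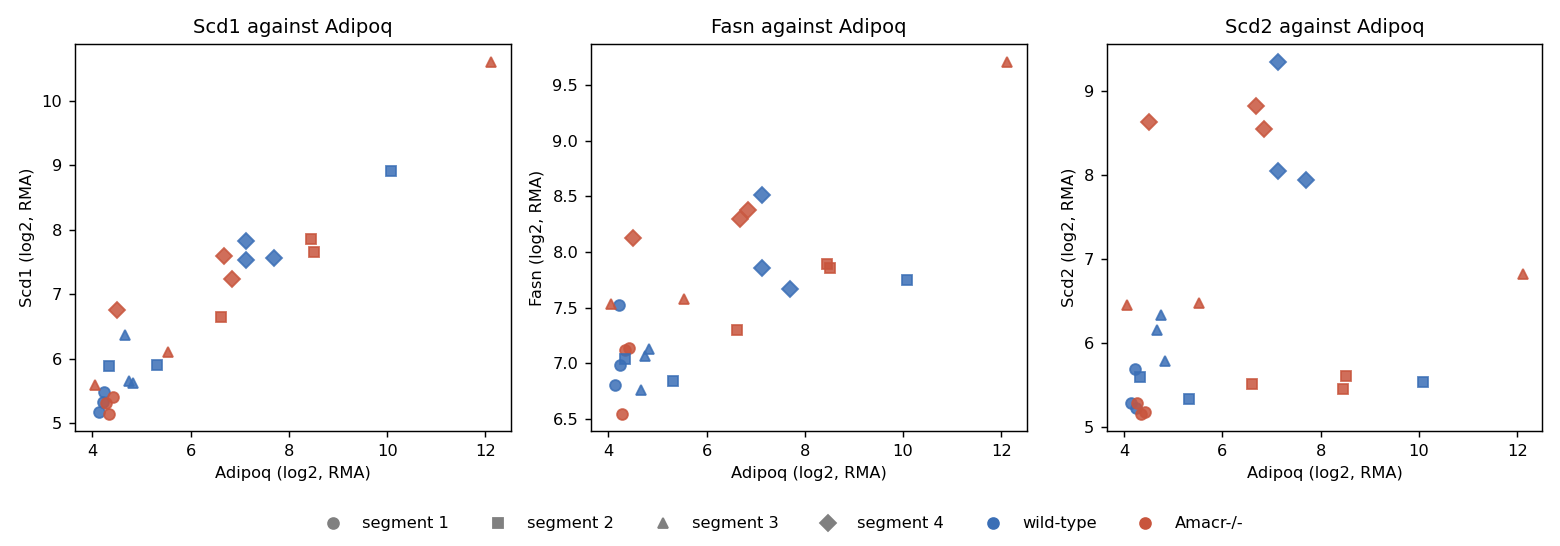
Log2 value of Scd1, Fasn and Scd2 (vertical axes) against that of Adipoq, a fat cell gene (horizontal axis), on 24 arrays; colour is genotype and shape is segment. The arrays with Adipoq at 10.08 and 12.11 carry the highest Scd1 values (8.91 and 10.61), while the 6 segment 4 arrays are highest for Scd2 whatever their Adipoq value.

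Marker genes of other cell types also varied between arrays. The score of 8 epithelial genes was lower in segment 1 (-0.20 to -0.19 in wild-type and -0.35 to -0.25 in Amacr-/- mice) than in segment 4 (0.11 to 0.24 and 0.27 to 0.34), without overlap. The score of the 8 measured of 10 listed proliferation genes lay between -0.85 and 0.53 in segment 1 and between 0.42 and 1.21 in segment 4, ranges that overlap. Smooth muscle genes were high on replicate 3 of wild-type segment 2 (2.99) and replicate 1 of Amacr-/- segment 2 (2.39), and genes of the exocrine pancreas on replicate 1 of wild-type segment 1 (2.83) and replicate 3 of Amacr-/- segment 1 (1.42). The calls of Scd2, Acly, Elovl6, Me1 and Srebf1 between segments 4 and 1 were kept without the 6 arrays high in fat, muscle or pancreas genes; the part of epithelial and proliferating cells in these differences was not tested.

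Among the 41 other measured genes of the pathway, calls ran in both directions. For segment 4 against 1, 10 were higher and 10 lower in wild-type mice, where 10% of all genes were higher and 13.6% lower. In Amacr-/- mice 13 were higher and 7 lower, where 15.4% of all genes were higher and 14.9% lower. The medians of the 41 genes were -0.06 and 0.04. The test of whether the genotype difference varied with the segment called 0 of the 41 genes. A call in 1 genotype alone therefore does not show a difference between genotypes. Of 12 genes of elongation and desaturation, 5 were higher and none lower in wild-type mice, and 7 were higher and none lower in Amacr-/- mice. Elovl5, an elongase of polyunsaturated fatty acids, differed by 1.47 ± 0.17 (SE) and 2.20 ± 0.17 on the log2 scale (limma adjusted p = 1.64e-06 and 6.7e-09), and Fads2, the delta-6 desaturase, by 1.16 ± 0.25 and 1.58 ± 0.25 (adjusted p = 0.00183 and 6.59e-05). Elovl1, Elovl7 and Hsd17b12, the ketoreductase of the elongation cycle, were higher in segment 4 in both genotypes by between 0.45 and 1.09. Tecr and Hacd2, which complete that cycle, were called higher in segment 4 in Amacr-/- mice alone (0.47 and 0.33). Scd3, which lies beside Scd2 on chromosome 19, stayed between 4.58 and 5.11 on all 24 arrays.

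Among 9 genes of carbon and NADPH supply, 2 were higher and 4 lower in segment 4 in wild-type mice. In Amacr-/- mice 2 were higher and 3 lower. These calls are 66.7% and 55.6% of the list, beside 23.6% and 30.3% of all genes. The other malic enzymes ran opposite to Me1: Me3, a mitochondrial form, was higher in segment 4 by 0.82 ± 0.15 (SE; limma adjusted p = 0.000442) and 0.83 ± 0.15 (adjusted p = 0.000299), and mitochondrial Me2 by 0.37 and 0.48. Idh1, the cytosolic NADPH-forming isocitrate dehydrogenase, was lower by -0.96 and -0.91, and Slc25a1, the mitochondrial citrate carrier, by -0.41 and -0.35. Acss2, which makes acetyl-CoA from acetate, and Pgd, of the pentose phosphate route, were called lower in segment 4 in wild-type mice alone (-0.50 and -0.35). The malate dehydrogenase Mdh1 was called lower there in Amacr-/- mice alone (-0.46).

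Among 11 regulators, 2 were higher and 2 lower in segment 4 in wild-type mice, and 4 higher and none lower in Amacr-/- mice. In each genotype this is 36.4% of the list, beside 23.6% of all genes in wild-type and 30.3% in Amacr-/- mice. Srebf2, which encodes the sterol-regulated relative SREBP-2, was higher in segment 4 by 0.90 ± 0.19 (SE; limma adjusted p = 0.00141) and 1.36 ± 0.19 (adjusted p = 1.42e-05), the reverse of Srebf1. Insig2, which retains SREBPs in the endoplasmic reticulum, was higher by 0.86 and 0.74. Mlxipl, which encodes the carbohydrate-responsive factor ChREBP, was called in wild-type mice alone, lower in segment 4 by -0.85 ± 0.14 (limma adjusted p = 0.000142). So was Mbtps1, the site-1 protease that cleaves SREBPs (-0.27). Mbtps2, the site-2 protease, and Mid1ip1, an activator of acetyl-CoA carboxylase, were called higher in segment 4 in Amacr-/- mice alone (0.36 and 0.77).

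Of 9 genes of esterification, 1 was higher and 4 lower in segment 4 in wild-type mice, and 4 were lower in Amacr-/- mice. These calls are 55.6% and 44.4% of the list, beside 23.6% and 30.3% of all genes. Dgat2 and Dgat1, which complete triglyceride synthesis, were lower in segment 4 by -0.99 ± 0.23 (SE) and -0.55 ± 0.08 in wild-type mice (limma adjusted p = 0.00296 and 3.09e-05) and by -2.14 ± 0.23 and -0.44 ± 0.08 in Amacr-/- mice (adjusted p = 5.5e-07 and 0.000241). Acsl5, an acyl-CoA synthetase, was lower by -0.63 and -0.58, and Mogat2, the monoacylglycerol acyltransferase of fat absorption, by -0.30 and -0.48. Gpam, the mitochondrial glycerol-phosphate acyltransferase, was called higher in segment 4 in wild-type mice alone, by 0.49.

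Loss of Amacr gave no call among the fatty acid synthesis genes in any segment. With limma, 0 of the 7 genes passed in segment 1 (0.111% of all genes did), 0 in segment 2 (0.0721%), 0 in segment 3 (0.0262%) and 0 in segment 4 (0.0655%); at an unadjusted p under 0.05 the counts were 0, 0, 3 and 0, against 11.4%, 6.81%, 8.14% and 4.9% of all genes. Averaged over the 4 segments of each replicate number, 0 of 7 passed as well (0.0262% of all genes), with 2 at an unadjusted p under 0.05 (7.79% of all genes). The test of whether the genotype difference varied with the segment called 0 of 7 genes and 0% of all genes, with 0 of the 7 and 5.94% of all genes at an unadjusted p under 0.05; the smallest adjusted p among the 7 was 0.832, for Acly. Since genotypes are compared here on the same arrays as the segments, these results and those above share their samples.

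Segment 3 held the largest genotype differences, and 1 array carried much of them. All 7 genes had higher means in Amacr-/- mice there, with a median of 0.49 on the log2 scale against -0.02 over all genes. Fasn read 7.07, 6.76 and 7.13 in wild-type and 7.53, 7.58 and 9.71 in Amacr-/- mice, a difference of 1.29 ± 0.41 (SE; 95% interval 0.43 to 2.14; limma adjusted p = 0.485). Acly read 8.02, 8.18 and 8.28 against 8.31, 8.48 and 9.09, a difference of 0.47 ± 0.14 (95% interval 0.17 to 0.76; limma adjusted p = 0.469). For Me1 the values were 6.76, 7.09 and 6.90 against 7.40, 7.13 and 8.83, a difference of 0.87 ± 0.33 (95% interval 0.17 to 1.57; limma adjusted p = 0.561). In each of these 3 genes the highest Amacr-/- value was on replicate 3, the array with Adipoq at 12.11, and for each the wild-type and Amacr-/- values did not overlap.

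Without that array the segment 3 differences dropped to 0.57 ± 0.28 for Fasn, 0.23 ± 0.11 for Acly, 0.35 ± 0.27 for Me1 and 0.37 ± 0.27 for Scd2 (limma adjusted p 0.917 for Fasn, Acly and Scd2 and 0.918 for Me1). Scd1 went from 1.55 ± 0.89 (SE; limma adjusted p = 0.642) to -0.04 ± 0.60. Scd2, at 0.49 ± 0.25 with all arrays (95% interval -0.03 to 1.00; limma adjusted p = 0.621), was the gene of the set least moved among those with a difference above 0.40. The smallest differences in segment 3 were those of Elovl6 (0.08 ± 0.20) and Srebf1 (0.05 ± 0.24).

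Separation of the 3 Amacr-/- arrays from the 3 wild-type arrays was also counted without a test. In segment 3 all Amacr-/- values lay above all wild-type values for 4 of the 7 genes (Scd2, Fasn, Acly and Me1), where this held for 3.97% of all genes. In segment 2 it held for 1 gene, Acly (5.74% of all genes), in segment 4 again for Acly alone (5.82%), and in segment 1 for 0 (8.02%). Acly read 7.91, 8.06 and 8.20 against 8.26, 8.21 and 8.26 in segment 2, a difference of 0.19 ± 0.14 (SE), and the values of segment 4 were those above, a difference of 0.21 ± 0.14. In segment 1 the difference had the other sign, -0.12 ± 0.14.

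**Figure D4:**
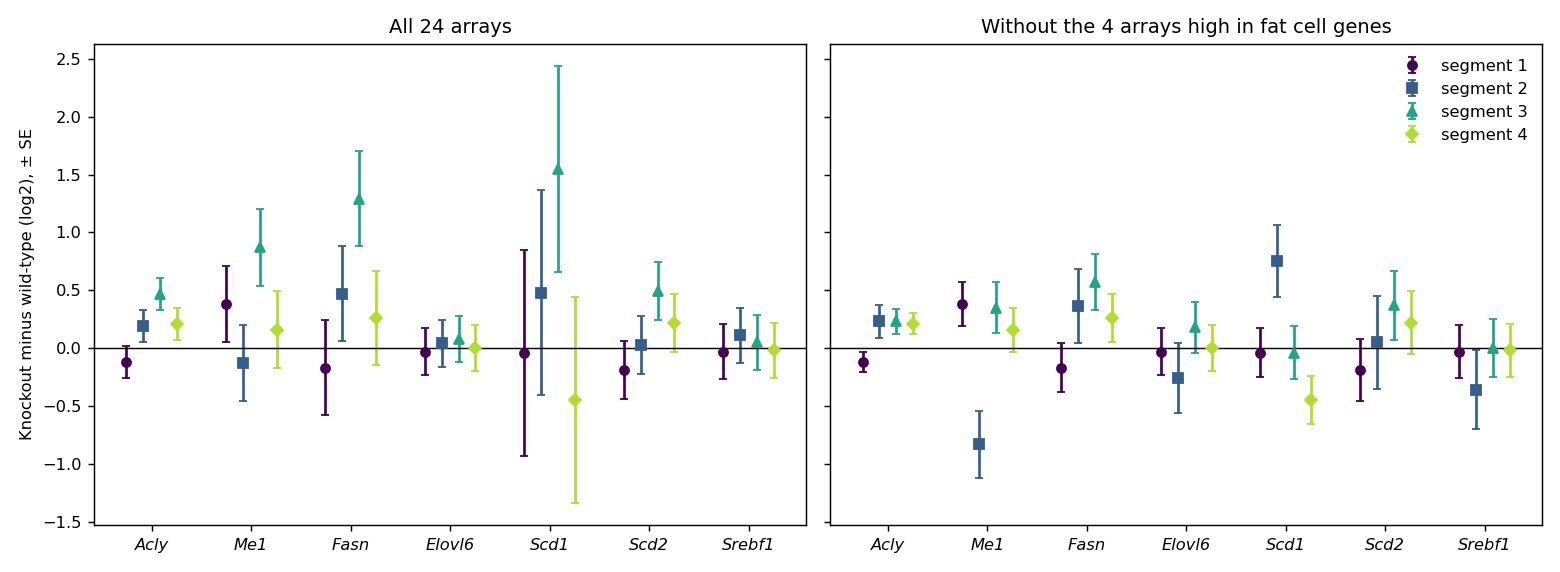
Log2 difference of Amacr-/- minus wild-type for the 7 genes in each of the 4 segments, with its standard error. The left panel holds all 24 arrays (3 arrays per group), and the right panel leaves out the 4 arrays high in fat cell genes. On the left, the values of segment 3 lie above 0 for all genes, up to 1.55 for Scd1 and 1.29 for Fasn, and no difference passed the test. On the right, segment 3 has Scd1 at -0.04 and Fasn at 0.57.

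In segments 1, 2 and 4 the intervals of the genotype differences contained 0 for all 7 genes. They were narrowest for Acly (-0.42 to 0.17, -0.11 to 0.48 and -0.09 to 0.50) and widest for Scd1 (-1.90 to 1.82, -1.38 to 2.35 and -2.31 to 1.42). For Scd2 they were -0.71 to 0.32, -0.48 to 0.55 and -0.29 to 0.73, and for Elovl6 -0.45 to 0.39, -0.38 to 0.45 and -0.41 to 0.42. A difference of about a doubling, up or down, was thus within the intervals for Scd1 in each of these segments and outside them for Acly, Elovl6 and Scd2. It was also within those of Fasn in each of these segments (-0.17, 0.47 and 0.26, each ± 0.41) and of Me1 in segment 1 (0.38 ± 0.33). Some of these differences moved with the fat cell genes: with the fat cell score as a covariate, segment 4 gave 0.29 ± 0.09 for Acly (SE; limma adjusted p = 0.579) and 0.51 ± 0.23 for Fasn (adjusted p = 0.913). Without the arrays high in fat cell genes Me1 in segment 2 was at -0.83 ± 0.29 (limma adjusted p = 0.951), a value that rests on 1 remaining Amacr-/- array, taken to vary like the other groups.

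Over the 4 segments together, Me1 and Acly had the smallest unadjusted p-values of the set. Me1 was higher in Amacr-/- mice by 0.32 ± 0.09 (SE; 95% interval 0.11 to 0.53; limma unadjusted p = 0.00834, adjusted p = 0.429) and Acly by 0.18 ± 0.07 (95% interval 0.02 to 0.35; limma unadjusted p = 0.0347, adjusted p = 0.593). Fasn was at 0.46 ± 0.21 (95% interval -0.03 to 0.96), Scd1 at 0.39 ± 0.37, Scd2 at 0.14 ± 0.15, Srebf1 at 0.03 ± 0.15 and Elovl6 at 0.02 ± 0.14. Without the 4 arrays high in fat cell genes, with the replicate number as a random effect, Me1 was at -0.0014 ± 0.13, Acly at 0.13 ± 0.06 and Scd1 at 0.05 ± 0.14.

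Of the 41 other genes of the pathway, 0 passed with limma for genotype in any segment or over the 4 segments, with 6, 5, 4, 7 and 7 at an unadjusted p under 0.05, beside 11.4%, 6.81%, 8.14%, 4.9% and 7.79% of all genes. The 2 with the largest absolute difference in each comparison were Dgat2 and Acsl3 in segment 1, Dgat2 and Thrsp in segment 2, Thrsp and Lpin1 in segment 3, Insig1 and Insig2 in segment 4, and Insig1 and Dgat2 over all. Dgat2 read 10.67, 10.89 and 11.05 in wild-type and 11.76, 11.88 and 12.14 in Amacr-/- segment 1, groups that did not overlap, with a difference of 1.06 ± 0.23 (SE; limma adjusted p = 0.0889); in segment 2 it was at 0.63 ± 0.23 (adjusted p = 0.559). Without the 4 arrays high in fat cell genes, none of which is in segment 1, the Dgat2 difference of segment 1 had an adjusted p of 0.0242 (limma). Leaving out the arrays high in fat, muscle or pancreas genes, some of which are in segment 1, 0 of the 41 genes passed in segment 1. Thrsp, a lipogenic protein of liver and fat, at 1.11 ± 0.68, and Lpin1, a phosphatidate phosphatase, at 0.83 ± 0.39, had their segment 3 differences on the array with Adipoq at 12.11, where they read 8.78 and 8.76 and no other array exceeded 6.97. Insig1, which retains SREBPs as Insig2 does, was at 0.55 ± 0.24 in segment 4 and 0.40 ± 0.08 over all (limma adjusted p = 0.936 and 0.284), and Insig2 at -0.47 ± 0.13 in segment 4 (adjusted p = 0.451).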

How the data were processed

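Total RNA from the scraped intestinal layer was labelled with biotin and measured on 24 single-colour arrays. Per the submitters' processing notes the authors used RMA, of a version not given in the sources, and deposited the log2 result for each probe set. Array medians lay between 6.06 and 6.16. Of 16556 probe sets, 15270 named 1 gene, 0 several, 64 were controls and 1222 are unnamed here. Where 2 probe sets named the same gene, as for 3 genes, only the brighter on average was used, leaving 15267 genes. Quantile equalisation in RMA removes differences in total RNA between arrays. No probe-level background measure was used here, so low values could not be told from background. The number of arrays limits the precision.

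limma 3.58.1 in R 4.3.3 was fitted to all 15267 genes with a mean for each of the 8 groups (16 residual degrees of freedom), and, for genotype over the 4 segments, to 6 means per replicate number (4 residual degrees of freedom). P-values were adjusted by Benjamini-Hochberg over all genes, with a threshold of 0.05, and intervals are 95% moderated t intervals. The p-values measure the spread between the labelled biological replicates; that a replicate number marks 1 mouse across segments is presumed and not stated. Same-numbered arrays of a genotype had deviations correlated at between -0.286 and 0.521 (median 0.061, 15 of 36 pairs over 0.1), and same-numbered arrays of the 2 genotypes at between -0.242 and 0.293 (2 of 12 over 0.1), so the fits on arrays have no block for the number, although the 4-segment comparison averages by it. Wild-type replicate 1 alone was correlated in all 6 of its pairs, at between 0.387 and 0.521. The fits were tested on simulated data.

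The members and the lists of pathway and marker genes were chosen with earlier results of these data known. An array counted as high in a tissue where its marker score exceeded 1. Named genes are the 8 members, other pathway genes past the threshold or among the 2 largest genotype differences, and the 2 genes most correlated with each member. Alternatives were median centring, leaving out genes with a mean under 6, another variance prior, the compared arrays alone, arrays high in other tissues left out, fat cell covariates, replicate blocks and each replicate left out. Promoter windows came from RefSeq (GRCm38.p6).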

Additional observations from a re-analysis of the deposited data

How the results depend on the processing

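No fatty acid synthesis gene passed for genotype in any segment, over the 4 segments or in the interaction under any alternative. Between segments the count of such genes past the threshold ranged from 5 to 7 of 7. In the main fits between 22.7% and 30.3% of all genes passed there. Counts over all genes moved more. Fitting the compared arrays alone, the genes called for genotype in segments 1, 2, 3 and 4 went from 17, 11, 4 and 10 to 3, 1, 0 and 3. Without the arrays high in fat cell genes they were 29 in segment 1, 5 in segment 2, where 1 Amacr-/- array is left and is assumed to vary like the other groups, and 6 in segment 4, and without those high in fat, muscle or pancreas genes 5 in segment 1 and 6 in segment 4. With the replicate block, whose numbers are not shown to pair all arrays (15 of 36 pairs within a genotype correlated over 0.1), they were 26, 25 and 16 in segments 1, 2 and 4 and 0 over the 4 segments. Over the 4 segments the count of 4 became 7 with the fat cell score as a covariate, 109 with a random replicate block, 223 with arrays in place of means, and, in fits that combine a random replicate block with arrays left out, 20 without those high in fat cell genes and 16 without those high in any of the 3 tissues; the effect of leaving them out is not separated there from that of the block. Among other pathway genes, 1 was called in segment 1 (Dgat2) without the arrays high in fat cell genes and with the replicate block (adjusted p = 0.0343), and over the 4 segments 1 with a random replicate block (Mbtps1, -0.24) and 3 with arrays in place of means (Insig2, Mbtps1 and Tecr). The replicate block changed no other call of the members' genotype or segment comparisons. The causes were not tested, except that fewer arrays or genes enter some fits by construction.

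Some genotype differences that changed sign were small or rested on few arrays, but not all. With no array left out, Scd1 in segment 4 was at -0.45 ± 0.89 (SE) in the main fit. It was at 0.20 with the fat cell score and 0.33 with Adipoq as a covariate. In segment 2 Scd1 went from 0.48 ± 0.89 to -0.06 and -0.28 in the same fits. Both main values lay within their standard errors. Me1 over the 4 segments went from 0.32 ± 0.09 to -0.0014 without the arrays high in fat cell genes. That fit also had a random replicate block. Without the arrays high in fat cell genes, and also without those high in any of the 3 tissues, Elovl6 and Srebf1 were at -0.26 and -0.36 in segment 2, again with 1 Amacr-/- array, and Scd1 at -0.04 in segment 3; the second of these settings put Elovl6 at 0.06 in segment 1. Over the 4 segments, with arrays and a random replicate block in place of means as well, the first gave Elovl6 -0.02, Me1 -0.0014 and Srebf1 -0.09, and the second Elovl6 -0.02 and Srebf1 -0.18. The fat cell score as a covariate gave Scd1 -0.06 in segment 2, Srebf1 -0.03 in segment 3, Scd1 0.20, Elovl6 -0.04 and Srebf1 0.02 in segment 4, and Srebf1 -0.05 over all. Adipoq as a covariate, added after seeing the data, gave Scd1 -0.28 and Scd2 -0.0016 in segment 2, Srebf1 -0.04 in segment 3, Scd1 0.33, Elovl6 -0.05 and Srebf1 0.03 in segment 4, and Srebf1 -0.05 over all.

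Leaving out each replicate in turn, the genes called for genotype ranged from 2 to 32 in segment 1 (lowest without wild-type replicate 2, highest without Amacr-/- replicate 1), from 3 to 28 in segment 2, from 2 to 10 in segment 3, from 3 to 17 in segment 4, from 1 to 4 over the 4 segments and from 0 to 3 for the interaction. In segment 3 the other pathway genes called ranged from 0 to 1 (Acss2, without wild-type replicate 3). The genotype differences then ranged in segment 1 from -0.11 to 0.04 for Scd1, -0.32 to 0.04 for Fasn, -0.15 to 0.16 for Elovl6 and -0.26 to 0.11 for Srebf1; in segment 2 from -0.02 to 1.49 for Scd1, -0.05 to 0.09 for Scd2, -0.10 to 0.14 for Elovl6, -0.38 to 0.09 for Me1 and -0.09 to 0.39 for Srebf1; in segment 3 from -0.04 to 2.47 for Scd1, -0.03 to 0.24 for Elovl6 and -0.15 to 0.21 for Srebf1. In segment 4 they ranged from -0.03 to 0.67 for Scd2, -0.17 to 0.22 for Elovl6 and -0.14 to 0.09 for Srebf1, and over the 4 segments from -0.06 to 0.61 for Scd1, -0.10 to 0.19 for Elovl6 and -0.10 to 0.16 for Srebf1. Between segments, 7 of 12 such fits ended the Fasn call over all segments of Amacr-/- mice (adjusted p from 0.00348 to 0.166), and without replicate 3 of segment 3 Scd1 passed there (adjusted p = 0.0122).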

Other observations

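The genes whose values ran closest to each member over the arrays were partly others once the fat-rich arrays were left out. Likeness is Pearson's r over 24 arrays that share segments, given as a description. Scd1 was most like Car3 and Adipoq, which are fat cell genes (both 0.96), and without the 4 arrays high in fat cell genes most like Car3 (0.92) and Mtpn (0.91). Scd2 was most like Pik3ap1 (0.97) and Fdft1, squalene synthase of the cholesterol pathway (0.96), and on 20 arrays Slc30a1 (0.98) and Pik3ap1 (0.97). Fasn was most like Cdo1 (0.91) and Slc1a5 (0.90), and on 20 arrays Cldn2 (0.96) and Elavl1 (0.95). Acly was most like Ppp2r1b and Baz1a (both 0.93), and on 20 arrays Aacs, acetoacetyl-CoA synthetase, and Fdft1 (both 0.98). Elovl6 was most like Ebp, a sterol isomerase (0.94, and 0.95 on 20 arrays), and Abcc3 (0.93 and 0.95). Me1 was most like Gstm2 and Miga2 (both 0.93), and on 20 arrays Cyp4a10, a fatty acid hydroxylase (0.98), and Hopx (0.97). Srebf1 was most like Fchsd2 and Sst, the hormone somatostatin (both 0.95), and on 20 arrays Sst (0.96) and Fchsd2 (0.95).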
